A study of Mus musculus with 6 samples.

Results

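The aminoacyl-tRNA synthetases are the enzymes that attach each amino acid to its tRNA, and 36 of their genes were examined in 6 mouse RNA-seq libraries. They were taken from a fixed list of gene symbols, 20 for the cytosolic enzymes and 16 for the mitochondrial enzymes, out of 35856 genes to which the deposited transcripts could be joined. The question of the series was what changes in gene expression when cells without p53 lose Mdm2, the ubiquitin ligase that keeps p53 in check. Cultures came from Mdm2 fl/fl p53-/- mice, so every library is labelled as carrying both the floxed Mdm2 allele and the loss of p53. Each of 3 labelled cell types (fibroblasts grown from ear punches, a sarcoma, a T cell lymphoma) contributed 1 library labelled Mdm2 deleted, from cells given 4-hydroxytamoxifen (4-OHT, 1 mM per the labels), and 1 library labelled vehicle, from cells given ethanol (EtOH). Exposure was 6 h for the label lymphoma and 48 h for the labels sarcoma and fibroblast. 4-OHT activates CreERT2, a Cre recombinase that a retrovirus brought into the cells together with GFP. A virus with GFP alone is also named in the labels, which do not say which virus the cells of a library carried. With no library labelled as GFP-only cells given 4-OHT, the labelled deletion and the 4-OHT exposure cannot be told apart.

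Most cytosolic and mitochondrial synthetases are products of separate nuclear genes, and the mitochondrial enzyme of a pair usually carries the suffix 2. Glycyl- and lysyl-tRNA synthetase are exceptions, since Gars and Kars each supply both compartments. In the cytosol several synthetases are held with the scaffold proteins Aimp1, Aimp2 and Eef1e1 in the multisynthetase complex, while the others act as free enzymes. Many cytosolic synthetase genes are known targets of ATF4, the transcription factor whose translation rises when eIF2alpha is phosphorylated in the integrated stress response. Uncharged tRNA activates the eIF2alpha kinase Eif2ak4 (GCN2), which ties this response to the charging reaction itself.

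The libraries held 26243064 to 37517726 estimated counts, and values below are CPM (counts scaled to library size with TMM factors) unless given per length as TPM. The labelled deletion was not visible in Mdm2 RNA, which measured 30.5, 31.1 and 31.1 CPM in the arm labelled deleted (cell labels fibroblast, lymphoma, sarcoma), against 28.4, 28.0 and 28.5 CPM in the arm labelled vehicle (log2 fold change 0.13 ± 0.05 SE, edgeR adjusted p = 0.0539). Deposited values carry no read positions and do not show whether part of the gene was removed. Cell type markers did not separate the labels either. Of 12 T cell markers, the 10 other than Thy1 and Lck summed to between 0 and 5 counts in every library, those labelled lymphoma included. Lck had 4.07, 3.68 and 4.12 CPM in the libraries labelled deleted, against 2.04, 1.89 and 2.15 CPM in those labelled vehicle (edgeR adjusted p = 8.05e-05). Thy1, also listed as a fibroblast marker, had 66.3, 66.0 and 59.7 CPM against 97.6, 92.4 and 91.7 CPM (edgeR adjusted p = 9.57e-07). The 10 fibroblast markers summed to 10438 to 10689 CPM in the libraries labelled deleted and 16442 to 17010 CPM in those labelled vehicle. Across 9873 protein-coding genes, 2 libraries of 1 arm differed with an SD of 0.1 to 0.145 in log2 CPM whatever their cell type label, against 0.531 to 0.544 between arms. Every group is therefore called by its label. Nothing in the labels beyond the cell type names and the exposure times says that the 3 libraries of an arm came from separate cultures. The p-values thus reflect only the spread between the samples at hand, which may be technical. Markers of other cells also moved with the arm: 8 leukocyte and macrophage markers summed to 7.18 to 9.32 CPM in the libraries labelled deleted and 4.66 to 5.28 CPM in those labelled vehicle. Most of that sum was Cd68. Itgam had 0.984, 0.601 and 0.542 CPM in the libraries labelled deleted, against 0, 0 and 0.0266 CPM in those labelled vehicle, and Csf1r had 0.489 to 0.746 CPM against 0.212 to 0.316 CPM. Cd68, Itgam and Csf1r, the 3 of the 8 that passed the filter on low counts, all rose (edgeR adjusted p = 0.00165, 2.62e-05 and 0.0057). Of all genes tested, 25.0% rose. Itgam and Csf1r reached the filter only in the libraries labelled deleted, so their direction was largely fixed by the filter and is no support. The pan-leukocyte gene Ptprc, too low to be tested, was at 0.506 CPM or less. Of 7 epithelial and endothelial markers, 2 were tested. Pecam1 rose (log2 fold change 2.09 ± 0.34, edgeR adjusted p = 0.000329), at 0.903 CPM or less in every library, and Epcam did not pass (-0.03 ± 0.31). Pecam1 likewise reached the filter only in the libraries labelled deleted. Fewer cells of a type and less RNA per cell cannot be told apart in such bulk libraries, and the part of these markers in the results on synthetases was not tested.

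Most cytosolic synthetase RNAs were higher in the libraries labelled deleted, while most mitochondrial ones did not pass in either direction; the difference between the classes was not tested. Of the 20 cytosolic genes, 16 rose, 0 fell and 4 did not pass (edgeR quasi-likelihood test, Benjamini-Hochberg adjusted p under 0.05, 3 labelled pairs), where 25.0% of the 15933 genes tested rose and 24.6% fell. Their median log2 fold change was 0.32, with a range of -0.08 to 0.65, beside a median of 0.02 over all genes tested. Without adjustment, 17 cytosolic genes were higher and 0 lower at p under 0.05 in edgeR, and 16 and 0 in DESeq2. Among the 16 mitochondrial genes, 2 rose, 4 fell and 10 did not pass, with a median of -0.05 and a range of -0.26 to 0.33. All 36 passed the filter on low counts, with 747 to 17843 estimated counts per library for the cytosolic genes and 108 to 4385 for the mitochondrial genes, so the standard errors were narrower for the cytosolic genes (median 0.04 against 0.07 on the log2 scale).

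**Figure D1:**
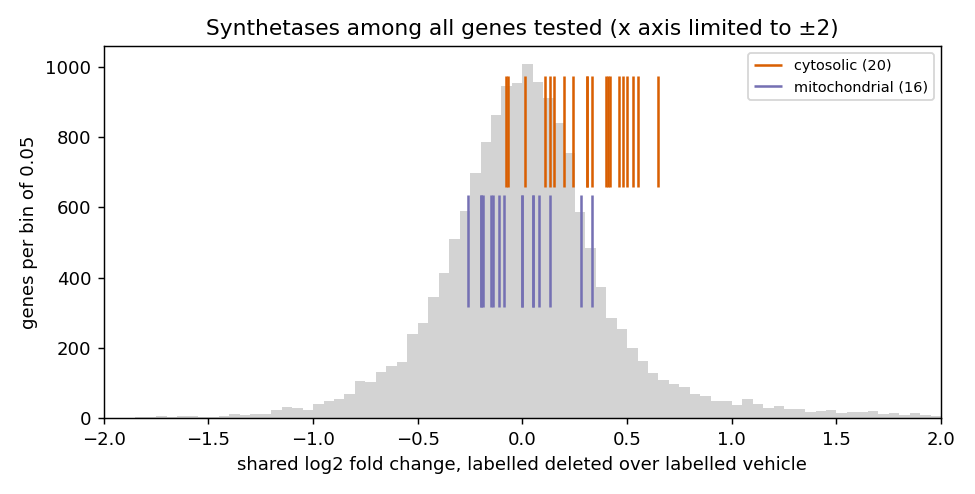
Histogram of the shared log2 fold change (libraries labelled deleted over libraries labelled vehicle) of the genes tested, with the vertical axis as genes per bin of 0.05 and the horizontal axis limited to ±2. Orange lines mark the 20 cytosolic synthetases, which run from -0.08 to 0.65, and purple lines the 16 mitochondrial ones, which run from -0.26 to 0.33; the height of the lines carries no value.

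The labelled pairs shared the direction in most cytosolic genes, and less often in mitochondrial ones. In 17 of 20 cytosolic genes every library labelled deleted was above every library labelled vehicle, and in 1, Qars, every library labelled deleted was below, where the arms did not overlap in this way for 27.7% of all genes tested in the higher direction and 27.8% in the lower. Among the 16 mitochondrial genes the arms did not overlap in 3 with the libraries labelled deleted above (Mars2, Yars2, Pars2) and in 5 with them below (Wars2, Hars2, Cars2, Vars2, Iars2). All 3 pairs had the same sign in 19 of 20 cytosolic and 8 of 16 mitochondrial genes, beside 68.1% of all genes tested. The median log2 ratio over the cytosolic genes was 0.36 in the pair labelled fibroblast, 0.36 in the pair labelled lymphoma and 0.27 in the pair labelled sarcoma, and over the mitochondrial genes it was 0.05, -0.02 and -0.11 in the same order. At least 1.25-fold higher were 11, 12 and 9 of the 20 cytosolic genes in these pairs and 1, 1 and 0 of the 16 mitochondrial genes, beside 17.2%, 17.2% and 20.4% of all genes. At least 1.25-fold lower were 0 of the cytosolic genes in each pair and 1 mitochondrial gene, Lars2 in the pair labelled lymphoma, beside 15.6%, 15.4% and 16.2% of all genes. The pair labelled sarcoma gave the lowest of the 3 ratios for 17 of 20 cytosolic and 12 of 16 mitochondrial genes, beside a lower share, 39.5%, of all genes tested.

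**Figure D2:**
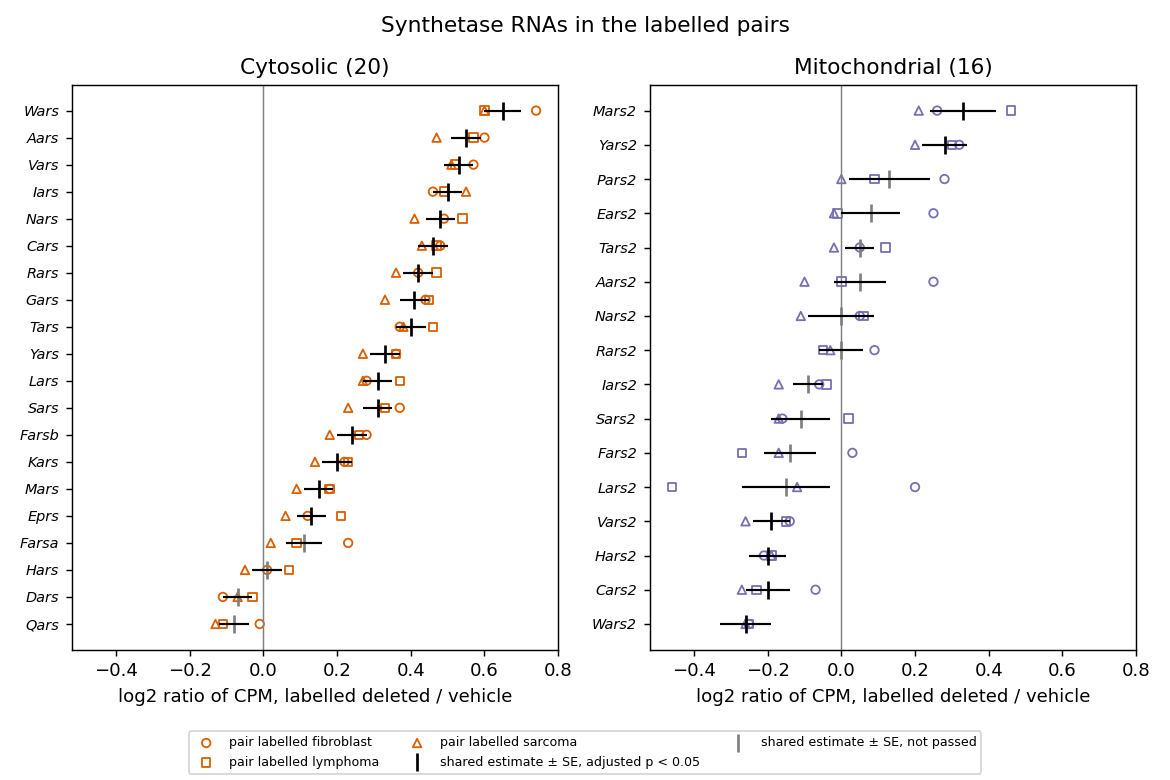
Log2 ratio of CPM, labelled deleted over labelled vehicle, for each of the 20 cytosolic and 16 mitochondrial synthetase genes. Open symbols are the 3 labelled pairs, vertical ticks and horizontal bars the shared estimate ± SE, with the tick black where the edgeR adjusted p was under 0.05 and grey where it was not; from Wars down to Farsa all open symbols of the cytosolic panel lie right of 0, while most mitochondrial genes have symbols near or on both sides of 0.

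Tryptophanyl-tRNA synthetase had the largest fold change of the members. Wars (ENSMUSG00000021266.16, chromosome 12, 108860030 to 108894174, GRCm38) stood at 44.1 CPM in the library labelled fibroblast deleted, 39.8 in lymphoma deleted and 42.0 in sarcoma deleted, against 26.2, 26.1 and 27.6 CPM in the libraries labelled vehicle, and this order of cell labels is kept below. Every library labelled deleted lay above every library labelled vehicle, by a log2 fold change of 0.65 ± 0.05 (SE, edgeR adjusted p = 1.12e-06). Besides being a reported ATF4 target, the human gene is known to be induced by interferon-gamma. The cytosolic enzymes for alanine and valine followed. Aars, the alanine enzyme (ENSMUSG00000031960.14, chromosome 8, 111033144 to 111057664), had 365.3, 356.1 and 358.0 CPM in the libraries labelled deleted, against 240.7, 238.9 and 258.1 CPM in those labelled vehicle. Vars, the valine enzyme, which binds the elongation factor eEF1 complex (ENSMUSG00000007029.16, chromosome 17, 35000987 to 35016322), had 605.3, 601.0 and 595.1 CPM in the libraries labelled deleted, against 408.1, 419.3 and 418.0 CPM in those labelled vehicle. The arms of both genes were far apart relative to their spread, with log2 fold changes of 0.55 ± 0.04 for Aars (edgeR adjusted p = 1.28e-06) and 0.53 ± 0.04 for Vars (edgeR adjusted p = 1.17e-06). Counting intervals of the single pairs excluded a ratio of 1 for these genes; the Wars ratio was 1.68 (95% Clopper-Pearson interval 1.54 to 1.84) in the pair labelled fibroblast, 1.52 (1.39 to 1.67) in the pair labelled lymphoma and 1.52 (1.4 to 1.65) in the pair labelled sarcoma, intervals that cover counting error only.

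Isoleucyl-tRNA synthetase, Iars (ENSMUSG00000037851.13, chromosome 13, 49682100 to 49734267), is a member of the multisynthetase complex. It was measured at 223.4, 226.7 and 217.7 CPM in the libraries labelled deleted, against 162.8, 161.1 and 149.0 CPM in the libraries labelled vehicle (log2 fold change 0.50 ± 0.04, edgeR adjusted p = 2.22e-06). Of the 20 cytosolic genes it was the only one with its highest ratio in the pair labelled sarcoma. Nars, the asparagine enzyme (ENSMUSG00000024587.10, chromosome 18), had 402.8, 399.3 and 396.5 CPM in the libraries labelled deleted, against 286.7, 274.0 and 297.7 CPM in those labelled vehicle (0.48 ± 0.04, edgeR adjusted p = 3.43e-06). Cars, the cysteine enzyme (ENSMUSG00000010755.17, chromosome 7, 143557230 to 143600090), had 168.2, 164.6 and 158.9 CPM in the libraries labelled deleted, against 120.3, 118.5 and 118.2 CPM in those labelled vehicle (0.46 ± 0.04, edgeR adjusted p = 3.42e-06). In each of these 3 genes the lowest library labelled deleted lay above the highest library labelled vehicle.

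Rars, the arginine enzyme of the complex (ENSMUSG00000018848.4, chromosome 11, 35808381 to 35834506), is the member of this leading group that the list of known ATF4 targets used here does not hold. It had 159.6, 158.1 and 158.7 CPM in the libraries labelled deleted, against 118.8, 114.1 and 123.2 CPM in the libraries labelled vehicle, and its log2 fold change was 0.42 ± 0.04 (edgeR adjusted p = 9.25e-06). Gars, the glycine enzyme of cytosol and mitochondrion (ENSMUSG00000029777.10, chromosome 6, 55038007 to 55079500), had 332.3, 329.6 and 327.8 CPM in the libraries labelled deleted, against 244.0, 241.4 and 260.6 CPM in the libraries labelled vehicle, with a log2 fold change of 0.41 ± 0.04 (edgeR adjusted p = 1.42e-05). In both genes the vehicle libraries were the more spread arm. Over all 20 cytosolic genes the coefficient of variation between the 3 libraries of an arm had a median of 1.42% in the libraries labelled deleted and 3.73% in those labelled vehicle, and over the 16 mitochondrial genes it was 3.54% and 5.3%.

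**Figure D3:**
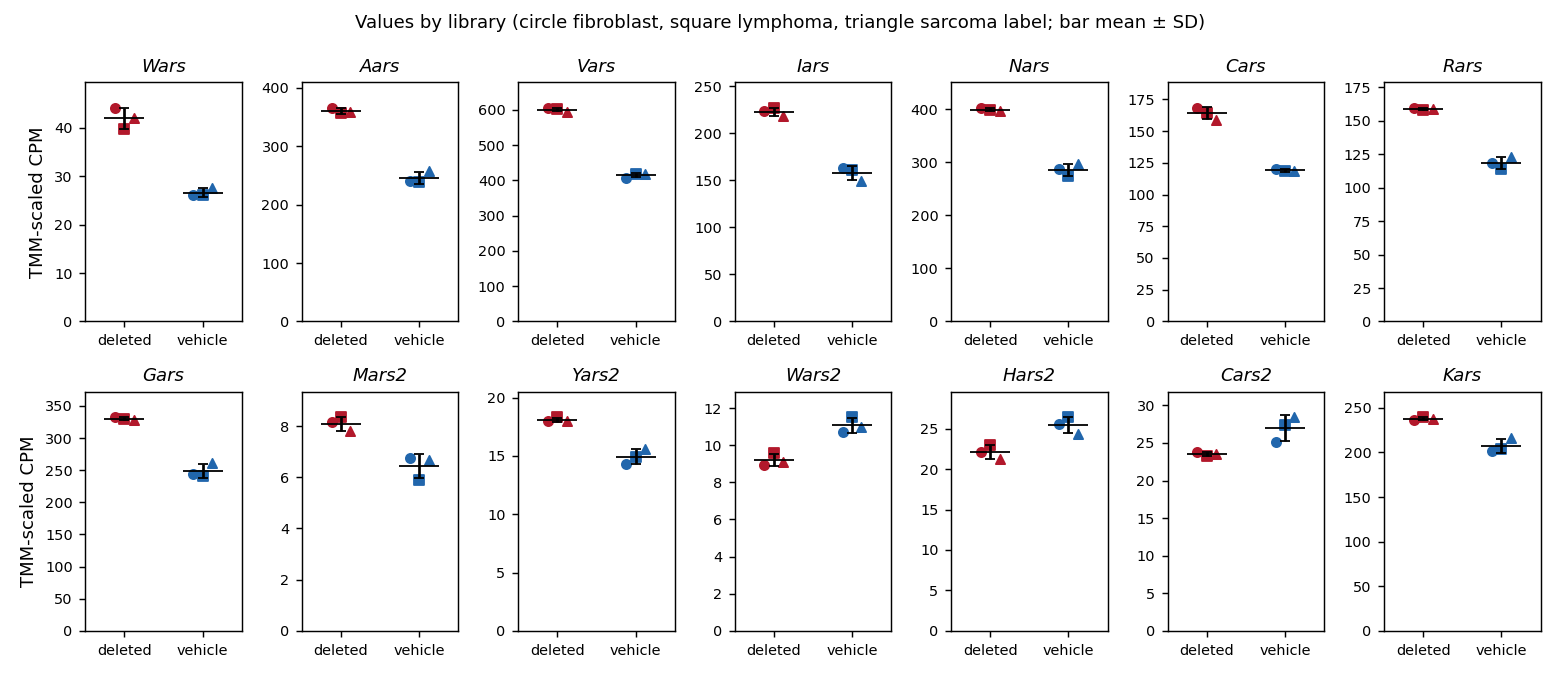
TMM-scaled CPM of 14 synthetase genes in each library, from an axis that starts at 0, with libraries labelled deleted in red on the left and libraries labelled vehicle in blue on the right; circles, squares and triangles are the labels fibroblast, lymphoma and sarcoma, and bars the mean ± SD of 3 libraries. All genes but Kars were chosen for the largest changes among those that passed with the same sign in all pairs. This choice favours arms that lie apart, and the arms do not overlap in any panel. Wars2, Hars2 and Cars2 are lower in the libraries labelled deleted, and the other 11 genes are higher.

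The other cytosolic genes that rose did so by less. Log2 fold changes were 0.40 ± 0.04 for Tars (threonine), 0.33 ± 0.04 for Yars (tyrosine), 0.31 ± 0.04 for Sars (serine), 0.31 ± 0.04 for Lars (leucine) and 0.24 ± 0.04 for Farsb, the beta subunit of the phenylalanine enzyme, with edgeR adjusted p-values from 1.34e-05 for Tars to 0.000596 for Farsb. Kars, the lysine enzyme (ENSMUSG00000031948.14, chromosome 8, 111993443 to 112011323), had 235.8, 239.3 and 237.9 CPM in the libraries labelled deleted, against 201.7, 203.8 and 215.9 CPM in the libraries labelled vehicle (0.20 ± 0.04, edgeR adjusted p = 0.00235). Its arms did not overlap, and the library labelled sarcoma vehicle was the nearest to the other arm. Mars (methionine) and the bifunctional glutamyl-prolyl enzyme Eprs changed least among the genes called, with log2 fold changes of 0.15 ± 0.04 (edgeR adjusted p = 0.0123) and 0.13 ± 0.04 (edgeR adjusted p = 0.0271). Both lost the call when the pair labelled fibroblast was left out (adjusted p = 0.0935 for Mars and 0.0984 for Eprs) or the pair labelled lymphoma (0.0984 and 0.258). Limma on log2(TPM + 1) did not call Kars, Farsb, Mars or Eprs, with adjusted p-values from 0.109 for Kars to 0.309 for Eprs. DESeq2's Wald test did not call Mars (adjusted p = 0.0502), and edgeR without the filter on low counts did not call Eprs (adjusted p = 0.0913).

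Farsa, Hars, Dars and Qars did not pass. Farsa, the alpha subunit of the phenylalanine enzyme, had 66.9, 64.0 and 64.3 CPM in the libraries labelled deleted, against 56.8, 60.2 and 63.5 CPM in the libraries labelled vehicle (0.11 ± 0.05, edgeR adjusted p = 0.0701), and it passed as higher without the pair labelled sarcoma (0.16, adjusted p = 0.0292) and with protein-coding genes only (0.13, adjusted p = 0.027). Hars, the histidine enzyme, held 111.1, 111.3 and 111.3 CPM in the libraries labelled deleted, against 110.1, 106.0 and 115.5 CPM in those labelled vehicle, with a log2 fold change of 0.01 ± 0.04 (edgeR adjusted p = 0.871). Dars, the aspartate enzyme of the complex, had a log2 fold change of -0.07 ± 0.04 (edgeR adjusted p = 0.186) and arms that overlapped. Qars, the glutamine enzyme, had 128.8, 125.9 and 123.2 CPM in the libraries labelled deleted, against 129.5, 135.5 and 135.2 CPM in the libraries labelled vehicle (-0.08 ± 0.04, edgeR adjusted p = 0.135). Without the pair labelled fibroblast, Qars was called lower (-0.14, adjusted p = 0.0288).

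Split by complex, 6 of 8 multisynthetase complex enzymes and 10 of 12 free cytosolic enzymes rose, with median log2 fold changes of 0.17 and 0.40, where 25.0% of all genes tested rose and 24.6% fell. The difference between these sub-lists was not tested. Within the complex the changes were uneven: Iars and Rars rose by 0.50 and 0.42, Lars and Kars by 0.31 and 0.20, Mars and Eprs by 0.15 and 0.13, and Dars and Qars had -0.07 and -0.08. The 3 scaffold proteins did not move as 1 group. Aimp1 fell by 0.15 ± 0.04 on the log2 scale (edgeR adjusted p = 0.0132), Eef1e1 rose by 0.20 ± 0.05 (edgeR adjusted p = 0.00752), and Aimp2 had 0.03 ± 0.05 (edgeR adjusted p = 0.663). All 13 cytosolic synthetases listed as known ATF4 targets rose, with a median of 0.41. Of the 7 other cytosolic synthetases 3 rose (Rars, Farsb and Kars), with a median of 0.11 (25.0% of all genes rose). Every library labelled deleted lay above every library labelled vehicle in all 13 listed targets and in 4 of the 7 others, beside 27.7% of all genes tested. In 1 of the 7, Qars, every library labelled deleted lay below, beside 27.8%. These lists were drawn up with earlier results of these data known, so the counts describe the genes and carry no test of the lists.

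Promoter sequence was examined as a description, with no test. RefSeq windows from 250 bases before to 50 bases after the start of transcription (GRCm38.p6) were at hand for 27 of the 36 genes, in 28 windows, and not for Vars, Nars, Hars2, Pars2, Cars, Lars, Hars, Wars and Rars. The letters TGATGNAA, the core of the C/EBP-ATF response element to which ATF4 binds, were searched on both strands. They were found in the windows of Aars, Gars, Iars, Tars and Yars, which is 5 of 13 cytosolic windows, in 0 of 15 mitochondrial windows and in 3.97% of the 32851 windows of the whole table. The windows with the core are shown 5′ to 3′ on the strand of the gene, with capitals on the core (for all but Yars it reads on the opposite strand), followed by the window of Yars2, a mitochondrial gene that rose and has no core in its window:
Aars, chr8:111033592-111033891, plus strand: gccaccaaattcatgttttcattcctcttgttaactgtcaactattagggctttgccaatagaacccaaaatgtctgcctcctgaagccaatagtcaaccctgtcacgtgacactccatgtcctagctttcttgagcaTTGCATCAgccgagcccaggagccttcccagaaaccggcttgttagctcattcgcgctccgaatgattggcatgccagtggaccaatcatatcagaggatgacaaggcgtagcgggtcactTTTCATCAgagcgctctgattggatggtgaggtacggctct
Gars, chr6:55037751-55038050, plus strand: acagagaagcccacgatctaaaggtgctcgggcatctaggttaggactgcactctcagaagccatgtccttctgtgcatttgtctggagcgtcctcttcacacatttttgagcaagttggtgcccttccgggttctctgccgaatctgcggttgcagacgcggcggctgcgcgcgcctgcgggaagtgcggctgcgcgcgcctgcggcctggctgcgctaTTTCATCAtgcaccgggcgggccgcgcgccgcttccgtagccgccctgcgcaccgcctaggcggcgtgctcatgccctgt
Iars, chr13:49681880-49682179, plus strand: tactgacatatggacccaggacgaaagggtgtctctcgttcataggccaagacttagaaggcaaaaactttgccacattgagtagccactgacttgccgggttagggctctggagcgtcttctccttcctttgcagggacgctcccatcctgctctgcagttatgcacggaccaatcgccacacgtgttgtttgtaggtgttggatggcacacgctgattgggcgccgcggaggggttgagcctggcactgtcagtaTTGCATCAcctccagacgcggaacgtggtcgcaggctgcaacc
Tars, chr15:11399609-11399908, minus strand: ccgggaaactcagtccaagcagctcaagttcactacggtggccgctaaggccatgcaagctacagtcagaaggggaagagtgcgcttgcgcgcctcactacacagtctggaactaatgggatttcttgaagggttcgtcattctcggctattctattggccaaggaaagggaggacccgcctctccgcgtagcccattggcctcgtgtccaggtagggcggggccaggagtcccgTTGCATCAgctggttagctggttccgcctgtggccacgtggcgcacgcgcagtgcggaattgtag
Yars, chr4:129189653-129189952, plus strand: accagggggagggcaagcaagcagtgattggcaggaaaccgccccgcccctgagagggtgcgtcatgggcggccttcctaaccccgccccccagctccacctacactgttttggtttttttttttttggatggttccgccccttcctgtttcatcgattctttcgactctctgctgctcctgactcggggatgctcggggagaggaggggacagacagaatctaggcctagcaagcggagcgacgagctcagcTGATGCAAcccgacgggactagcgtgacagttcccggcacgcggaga
Yars2, chr16:16302715-16303014, plus strand: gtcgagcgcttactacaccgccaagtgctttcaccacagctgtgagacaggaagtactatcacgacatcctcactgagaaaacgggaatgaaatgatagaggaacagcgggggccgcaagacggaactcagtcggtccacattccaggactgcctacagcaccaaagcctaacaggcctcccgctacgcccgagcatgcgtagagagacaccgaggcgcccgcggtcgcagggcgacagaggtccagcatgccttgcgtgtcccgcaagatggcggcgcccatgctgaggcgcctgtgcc

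Aars carried the core at 2 places, beginning 112 bases before and 10 bases after the start. In Gars and Tars it began 30 and 15 bases before the start, and in Iars and Yars 8 and 4 bases after it. The 5 genes with the core had log2 fold changes of 0.33 (Yars) to 0.55 (Aars). Eprs, Mars and Sars are also known ATF4 targets with a window, hold no core in it and had 0.13, 0.15 and 0.31. The 5 windows of other cytosolic synthetases (Dars, Farsa, Farsb, Kars and Qars) held none. Of the other motifs searched on both strands, the interferon-stimulated response element core was in 1 cytosolic window (Qars) and 0 mitochondrial windows, beside 3.44% of all windows. The gamma-activated site core TTCNNNGAA was in 2 cytosolic windows (Aars and Kars) and 1 mitochondrial window (Nars2), beside 8.3% of all windows, and the cAMP response element TGACGTCA was in none of either class, beside 1.79%. No match overlapped another in these windows. Such a match is a description of letters and not a bound site, and the windows of Dars, Kars, Sars and Sars2 had bases after the start that were not found in an annotated GENCODE transcript.

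Among the 16 mitochondrial genes 2 rose, a share below the 25.0% of all genes tested that rose. Mars2, which charges the mitochondrial methionine tRNA (ENSMUSG00000046994.9, chromosome 1, 55237177 to 55248470), had 8.14, 8.34 and 7.8 CPM in the libraries labelled deleted, against 6.74, 5.91 and 6.69 CPM in the libraries labelled vehicle (0.33 ± 0.09, edgeR adjusted p = 0.0111). Yars2, the tyrosine enzyme (ENSMUSG00000022792.16, chromosome 16, 16302965 to 16309640), had 18.0, 18.3 and 18.0 CPM in the libraries labelled deleted, against 14.3, 14.9 and 15.6 CPM in the libraries labelled vehicle (0.28 ± 0.06, edgeR adjusted p = 0.00306). The arms of both genes were apart, although the counting intervals of the Mars2 ratio in the pairs labelled fibroblast (0.995 to 1.47) and sarcoma (0.968 to 1.4) include 1.

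The other 4 called mitochondrial genes fell, a share of the 16 close to the 24.6% of all genes tested that fell. Wars2, the tryptophan enzyme (ENSMUSG00000004233.14, chromosome 3, 99141068 to 99239186), was counted at 8.92, 9.58 and 9.1 CPM in the libraries labelled deleted, against 10.7, 11.5 and 11.0 CPM in the libraries labelled vehicle (-0.26 ± 0.07, edgeR adjusted p = 0.01), opposite in sign to cytosolic Wars. Hars2, the histidine enzyme (ENSMUSG00000019143.15, chromosome 18), had 22.1, 23.0 and 21.3 CPM in the libraries labelled deleted, against 25.6, 26.4 and 24.4 CPM in the libraries labelled vehicle (-0.20 ± 0.05, edgeR adjusted p = 0.00818). The annotated spans of Hars and Hars2 lie head to head on opposite strands and share 198 bases at their starts, and the strand setting of the authors' counting is not given in the sources used here. Whether the shared bases lie in the counted targets, which mostly have coding length, was not checked. How far the values of both genes are affected is therefore unknown. Cars2, the cysteine enzyme (ENSMUSG00000056228.10, chromosome 8, 11513977 to 11550783), had 23.8, 23.3 and 23.5 CPM in the libraries labelled deleted, against 25.1, 27.4 and 28.4 CPM in the libraries labelled vehicle (-0.20 ± 0.06, edgeR adjusted p = 0.0156), with the library labelled fibroblast vehicle closest to the other arm. Vars2, the valine enzyme, had 40.3, 39.6 and 41.3 CPM in the libraries labelled deleted, against 44.3, 44.1 and 49.4 CPM in the libraries labelled vehicle (-0.19 ± 0.05, edgeR adjusted p = 0.00582). In all 4 genes no library labelled deleted reached the lowest library labelled vehicle.

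The mitochondrial calls depended on the tool. DESeq2's Wald test called 0 of the 16 genes in either direction at an adjusted p under 0.05 (1 higher and 2 lower at an unadjusted p under 0.05), and limma on log2(TPM + 1) also called 0 (2 higher and 0 lower unadjusted), while they called 15 and 12 of the 20 cytosolic genes higher. DESeq2 called 14.1% of all genes higher and 14.0% lower, and limma 14.8% and 9.74%. The sizes under DESeq2 stayed close to those of edgeR, with log2 fold changes of 0.32 for Mars2, 0.27 for Yars2, -0.27 for Wars2, -0.21 for Hars2, -0.20 for Cars2 and -0.19 for Vars2, so it was the call and not the estimate that moved. Leaving out the pair labelled lymphoma left 1 gene higher and 1 lower (20.4% and 19.9% of all genes in that fit), with Mars2 at 0.25 (edgeR adjusted p = 0.113), Wars2 at -0.27 (0.0558), Hars2 at -0.21 (0.054) and Cars2 at -0.18 (0.104) no longer passing; Cars2 also failed without the pair labelled sarcoma (-0.16, adjusted p = 0.0771). Without the pair labelled fibroblast, Fars2 (-0.24, adjusted p = 0.00578) and Lars2 (-0.34, adjusted p = 0.0201) passed as lower.

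The 10 mitochondrial genes that did not pass had log2 fold changes between -0.15 and 0.13. They were Lars2 at -0.15 ± 0.12, Fars2 at -0.14 ± 0.07, Sars2 at -0.11 ± 0.08, Iars2 at -0.09 ± 0.04, Rars2 and Nars2 within 0.01 of 0, Aars2 and Tars2 at 0.05, Ears2 at 0.08 ± 0.08 and Pars2 at 0.13 ± 0.11. Lars2, which charges the mitochondrial leucine tRNAs, had the widest spread, at 6.68, 6.5 and 6.07 CPM in the libraries labelled deleted, against 5.76, 9.15 and 6.64 CPM in the libraries labelled vehicle. The library labelled lymphoma vehicle stood above the other 5 libraries. Iars2, the most abundant of these genes in CPM, had arms that did not overlap, at 105.2, 104.6 and 103.5 CPM in the libraries labelled deleted and 109.9, 107.4 and 116.4 CPM in the libraries labelled vehicle, with an edgeR adjusted p of 0.105.

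Set side by side by amino acid, 17 cytosolic and mitochondrial combinations could be formed, and in 14 of them the cytosolic ratio was above the mitochondrial ratio in all 3 labelled pairs. The widest gap was for tryptophan, where the cytosolic minus the mitochondrial log2 ratio was 0.98, 0.85 and 0.85 (pairs in the order fibroblast, lymphoma, sarcoma). Valine followed with 0.7, 0.67 and 0.76, and cysteine with 0.56, 0.7 and 0.69. For tyrosine both genes rose by similar amounts, and the gap was 0.03, 0.07 and 0.07. Methionine was the reverse case, with gaps of -0.08, -0.29 and -0.12 between Mars and Mars2. Glutamate and proline, both served in the cytosol by Eprs, gave -0.13, 0.21 and 0.08 against Ears2 and -0.16, 0.12 and 0.06 against Pars2. These gaps compare genes within the same libraries and were not tested.

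**Figure D4:**
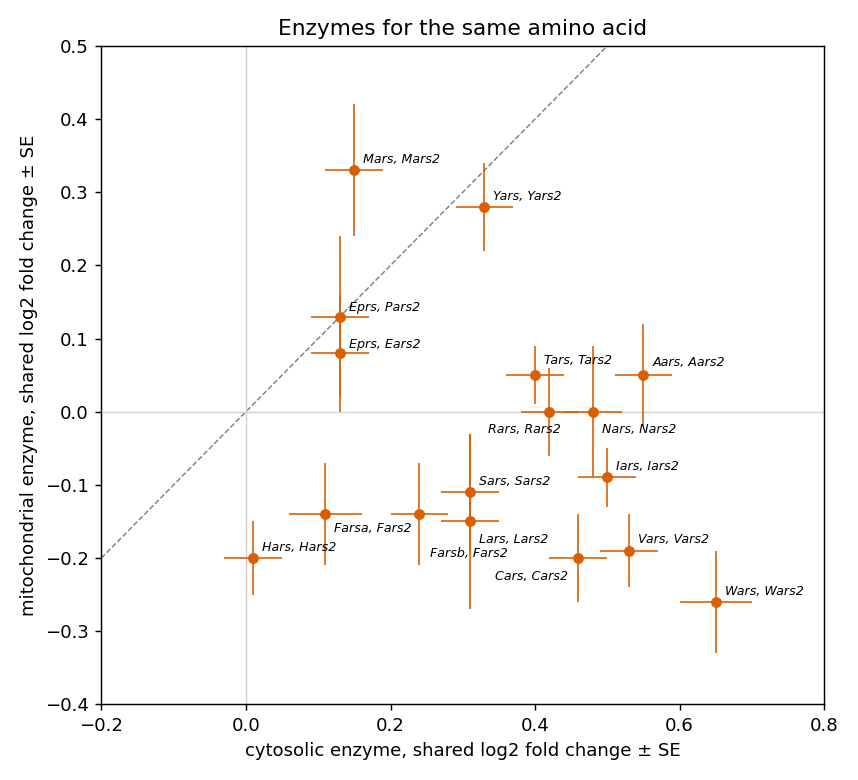
Shared log2 fold change (labelled deleted over labelled vehicle) ± SE of the cytosolic enzyme on the horizontal axis and of the mitochondrial enzyme for the same amino acid on the vertical axis, 17 combinations; the dashed line marks equal change. All combinations but Mars with Mars2 lie on or below the line, from Eprs with Pars2, equal at 0.13, to Wars with Wars2, at 0.65 and -0.26.

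Per length, the cytosolic genes were the more abundant class in every library. The mean TPM of the cytosolic genes ran from 21.5 to 133.5 in the libraries labelled deleted and from 19.2 to 105.1 in the libraries labelled vehicle, and that of the mitochondrial genes from 1.11 to 17.4 and from 1.21 to 17.4. Sars was the highest, at 133.5 ± 6.83 TPM in the libraries labelled deleted and 105.1 ± 3.91 TPM in those labelled vehicle (SD, n = 3 each), and Nars followed at 115.7 ± 6.88 and 81.0 ± 3.58 TPM. Lars2 was the lowest. Summed over the 20 cytosolic genes, TPM was 1069, 1128 and 1034 in the libraries labelled deleted, against totals of 844, 819.2 and 862.5 in those labelled vehicle. Summed over the 16 mitochondrial genes it was 107.4, 116.1 and 103.1 in the libraries labelled deleted, against totals of 110.1, 110.3 and 114.2 in the libraries labelled vehicle. The cytosolic sums of the arms were apart and the mitochondrial sums overlapped, so that the cytosolic to mitochondrial ratio of summed TPM was 9.95, 9.72 and 10.0 in the libraries labelled deleted, compared to 7.66, 7.43 and 7.55 in the libraries labelled vehicle.

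**Figure D5:**
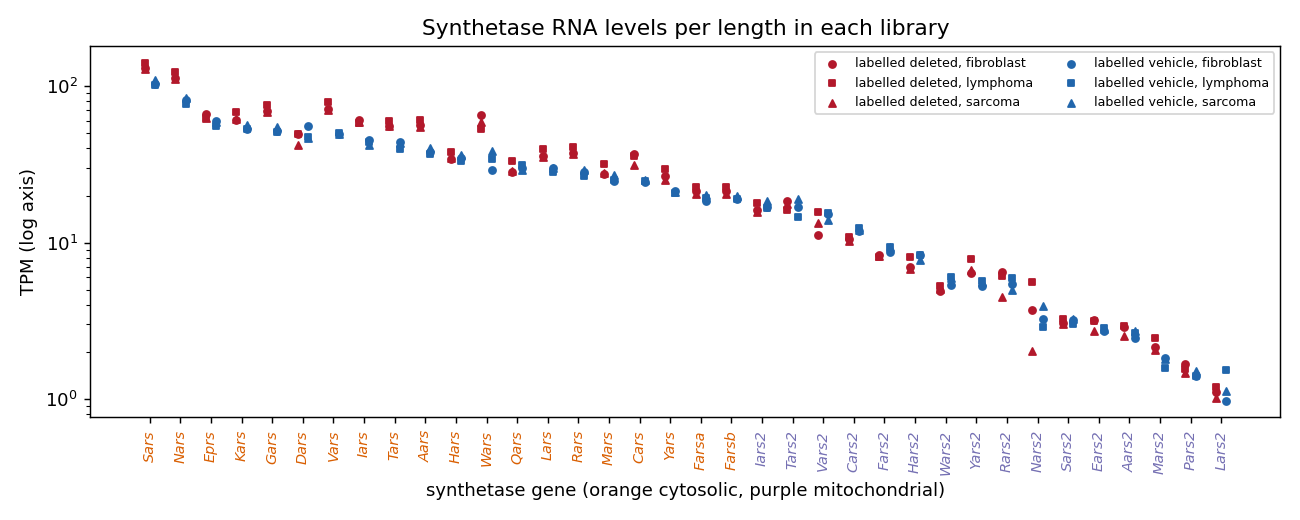
TPM (log axis) of the 36 synthetase genes in each library, ordered by the mean of the libraries labelled vehicle, with libraries labelled deleted in red left of those labelled vehicle in blue and gene names in orange for cytosolic and purple for mitochondrial enzymes. The mean TPM of every cytosolic gene, at least 19.2, is above that of every mitochondrial gene, at most 17.4.

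Some of these levels rest on short annotated transcripts, for which TPM is easily inflated. A 120-base Wars target annotated to the gene held 44.0 ± 6.04 TPM in the libraries labelled deleted and 24.5 ± 4.22 TPM in those labelled vehicle, more than the full-length coding targets of 1428 bases, which held 13.3 ± 0.521 and 8.3 ± 0.119 TPM. With targets of at least 500 bases only, Wars averaged 14.0 and 8.73 TPM in place of 59.2 and 33.8, Iars 25.8 and 17.8 in place of 59.6 and 43.8, Dars 29.9 and 30.6 in place of 47.0 and 50.1, and Vars2 6.18 and 6.71 in place of 13.5 and 14.9 (libraries labelled deleted and labelled vehicle). On that scale the classes are no longer apart: Wars in both arms, and Farsb in the libraries labelled vehicle (16.7 TPM), lie below Iars2, at 16.6 TPM in the libraries labelled deleted and 17.4 TPM in those labelled vehicle. The cytosolic to mitochondrial ratio of sums became 10.4, 10.5 and 10.6 in the libraries labelled deleted, compared to 8.27, 7.87 and 8.16 in the libraries labelled vehicle, and the counts of cytosolic genes (16 higher, 0 lower) and mitochondrial genes (2 higher, 4 lower) called were as before, beside 26.6% and 25.9% of all genes in that fit.

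Kars makes its cytosolic and mitochondrial enzymes from the same gene by alternative splicing, as described for the human gene. The 1788-base coding target had 51.3 ± 3.33 TPM in the libraries labelled deleted and 43.5 ± 2.43 TPM in the libraries labelled vehicle (SD, n = 3 each). The 2 targets of 1875 bases together had 12.2 ± 1.0 and 10.7 ± 0.487 TPM, which was 18.4% to 19.9% of the gene in the libraries labelled deleted and 18.0% to 20.8% in those labelled vehicle. The shares of the arms overlapped. How kallisto divides reads between such overlapping transcripts is an estimate, and which target encodes which enzyme was not read from the sequences.

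Other genes of tRNA charging and of elongation were read against the 25.0% of all genes tested that rose and the 24.6% that fell. Tarsl2, a further threonyl-tRNA synthetase gene outside the list, fell by 0.49 ± 0.06 on the log2 scale (edgeR adjusted p = 5.05e-05). Of the proteins that complete charging in mitochondria, Qrsl1 rose (0.38 ± 0.11, edgeR adjusted p = 0.0121) and Gatc fell (-0.42 ± 0.12, edgeR adjusted p = 0.0145), although both are subunits of the amidotransferase that makes glutaminyl-tRNA. The remaining subunit Gatb had -0.11 ± 0.06 and the methionyl-tRNA formyltransferase Mtfmt -0.02 ± 0.07, and neither passed. Among 4 trans-editing factors, which clear mischarged tRNA, 0 rose and 1 fell (Prorsd1, -0.40 ± 0.12, edgeR adjusted p = 0.0153). The share that fell was close to that of all genes, and the share that rose was below it. Of 6 cytosolic elongation factors, which deliver charged tRNA to the ribosome or act after it, 1 rose (Eif5a, 0.17 ± 0.04) and 4 fell, among them Eef2 (-0.23 ± 0.05) and Eef1a1 (-0.22 ± 0.05). Of 9 mitochondrial translation factors 0 rose and 2 fell, Mrrf (-0.20 ± 0.06) and Mtif2 (-0.15 ± 0.05). Again the share that fell was close to that of all genes, and the share that rose was below it.

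Genes of the ATF4 response moved in the same direction as the cytosolic synthetases. Of 16 genes listed for this axis, 15 rose and 1, Ddit4, fell (-0.49 ± 0.05), with a median log2 fold change of 0.54 and a range up to 1.90; of all genes tested, 25.0% rose and 24.6% fell. Slc7a11, the cystine transporter, reached 83.6, 88.1 and 82.8 CPM in the libraries labelled deleted, against 23.9, 21.3 and 22.9 CPM in the libraries labelled vehicle. Atf3 and Chac1 had log2 fold changes of 1.71 ± 0.09 and 1.57 ± 0.05. Atf4 itself had 742.2, 726.7 and 747.2 CPM in the libraries labelled deleted, against 555.2, 529.7 and 589.0 CPM in the libraries labelled vehicle (0.41 ± 0.04, edgeR adjusted p = 1.62e-05). The 13 synthetases listed as its targets had a median log2 fold change of 0.41 and a range of 0.13 to 0.65. RNA levels do not measure translation of ATF4 or phosphorylation of eIF2alpha.

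Of 8 genes for eIF2alpha, its kinases and their regulators and the phosphatase subunits, 6 rose and 0 fell, beside the same shares of all genes. Eif2ak2 (PKR), itself an interferon-induced gene, had 177.4, 178.2 and 176.2 CPM in the libraries labelled deleted, against 58.5, 55.2 and 54.0 CPM in the libraries labelled vehicle (1.67 ± 0.04, edgeR adjusted p = 4.98e-11). Eif2ak4, the sensor of uncharged tRNA, and Eif2ak3 (PERK), the kinase of the endoplasmic reticulum, did not pass, at -0.09 ± 0.04 and -0.04 ± 0.04. Ppp1r15a, which directs the phosphatase to eIF2alpha, rose by 0.68 ± 0.06. All 5 interferon-response genes examined for context rose (25.0% of all genes did), from 1.61 ± 0.04 for Irf1 to 5.87 ± 0.06 for Cxcl10. Their part, and that of the ATF4 axis, in the synthetase values was not tested.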

How the data were processed

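RNA was measured in 6 mouse libraries prepared with a stranded total RNA kit after ribosomal RNA depletion, per the labels' protocols. Estimated counts and TPM per transcript were deposited by the authors, with GRCm38 and kallisto 0.43.0 as named in the submitters' processing notes. Neither transcript set nor strand setting is given in the sources available. The members and all gene lists were chosen with earlier results of these data known.

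Targets were joined by identifier to GENCODE M21, and 75049 of 76055 matched (the other 1006 held 0.393% to 0.410% of a library's counts and were left out). Of 51165 protein-coding targets 98.7% lay within 3 bases of the annotated coding length, so reads in untranslated regions went uncounted. Estimated counts were summed per gene and rounded, and TPM summed per gene. All 6 libraries entered 1 edgeR 4.0.16 quasi-likelihood fit (two-sided, TMM, filterByExpr by arm, 15933 genes, Benjamini-Hochberg adjustment over all of them, threshold 0.05) with cell type label as a block, so the 3 labels served as replicates of an arm. This left 2 residual degrees of freedom, beside 9.23 prior ones. The pairing comes from the cell type labels; deviations of same-labelled libraries from their arm means correlated at -0.00935, 0.0983 and 0.0791. An SE is the absolute log2 fold change divided by the square root of F. Within a pair, with 1 library per group, log2 ratios of CPM + 0.5 were taken with no p-value, and CPM ratios carry 95% Clopper-Pearson intervals. The fit was also run on simulated counts with 200 changed genes, whereas 7901 genes were called in either direction in these data. With so different a setting, the simulation does not show how reliable the calls here are.

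Genes given in every library were the 8 cytosolic and 5 mitochondrial members with the largest absolute change among those passing with the same sign in all pairs, plus Wars, Gars and Kars; members that did not pass or fell are all named. Values of further members were chosen for display after they were seen. Alternatives were DESeq2 size factors, the DESeq2 1.42.0 Wald test, no filter beyond 1 count, limma 3.58.1 on log2(TPM + 1) and log2(TPM + 0.1), no block, protein-coding genes only, leaving out each labelled pair, and a pair pseudocount of 0.1. Restricting to targets of at least 500 bases was added after the data were seen. Software was scipy 1.17.1, numpy 2.4.6, pandas 2.3.3, Python 3.11.15 and R 4.3.3.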

Additional observations from a re-analysis of the deposited data

How the results depend on the processing

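Of the 36 members, 17 kept their direction and their side of the threshold under all 11 alternatives of the shared fit, among them 12 of the 16 cytosolic genes called. The cytosolic count called higher was 12 to 17 over the alternatives and the cytosolic median 0.29 to 0.36; the mitochondrial median ran from -0.09 to 0.01. Without the replicate block, calls were 3742 higher and 3772 lower over all genes, 16 and 0 cytosolic, and 2 and 4 mitochondrial, and no member changed its call; the pairing rests on labels that marker genes do not bear out. Leaving out 1 labelled pair gave 3256 to 3540 higher and 3185 to 3949 lower genes in all, 14 to 17 higher and 0 to 1 lower cytosolic genes, and 1 to 2 higher and 1 to 6 lower mitochondrial genes. Leaving out 1 library is the same as leaving out its pair under the block. Limma on log2(TPM + 1) called 2352 genes higher and 1552 lower, limma on log2(TPM + 0.1) 2401 and 1589, and DESeq2's Wald test 2425 and 2404; each called 0 mitochondrial genes higher and 0 lower. The cause was not tested.

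The signs that reversed belong to members that did not pass. Hars became -0.02 without the filter on low counts and -0.02 without the pair labelled fibroblast or lymphoma. Over the fits that leave out 1 pair, Aars2 ran from -0.08 to 0.13 and Ears2 from -0.04 to 0.13 (lowest without the label fibroblast), and Lars2 from -0.34 to 0.04 (highest without the label lymphoma). Nars2 became 0.01 with protein-coding genes only, 0.06 with either limma fit and -0.05 to 0.06 when 1 pair was left out. Rars2 became -0.00018 with DESeq2 size factors, -0.02 without the filter, -0.06 to 0.03 when 1 pair was left out, -0.0044 with targets of at least 500 bases and -0.01 with DESeq2's Wald test. At 108 to 4385 counts per library, the mitochondrial genes had a median standard error of 0.07 on the log2 scale, beside 0.04 for the cytosolic genes. A gene that did not pass is not shown to be unchanged.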
